A study of Mus musculus with 9 samples.

Results

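A set of 9 genes tied to stretch and injury of cardiac muscle were followed in heart RNA of mice after ischemia and reperfusion. They were Ankrd1, Csrp3, Flnc, Xirp1, Xirp2, Sprr1a, Sh2d5, Tnfrsf12a and Runx1, 9 of the 54532 genes in the count table, picked by name because several of them had large rises after ischemia-reperfusion in these same libraries. Their differences from sham are therefore a description. The calls that the fit over all genes made for them against sham are counted below, but are no independent test of them, and the comparison of treated with untreated hearts is the only one their choice did not use. Wild-type male C57BL/6J mice of 8 to 10 weeks were used, with 3 mice per group and 1 library per mouse. In the MIRI group the left anterior descending coronary artery was tied for 30 min and released for 24 hrs. In the GXNI group the same injury was made and Guanxinning injection, a Chinese herbal preparation of danshen and chuanxiong, was given at 9 mL/kg through the tail vein within 10 min of ischemia. MIRI mice received saline, and sham mice had the chest opened and the suture passed without a tie. The labels name cardiomyocytes as the cell type and heart as the tissue. The summed markers of endothelial cells, fibroblasts and macrophages described at the end were present in every library, so the values are those of heart tissue. In such bulk RNA, fewer cells of a type and less RNA per cell cannot be told apart.

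Cardiac muscle senses mechanical load at the Z-disc, the costamere and the intercalated disc, where actin filaments are anchored and where scaffold proteins carry signals to the nucleus. Ankrd1 and Csrp3 belong to this sensing machinery, while Flnc, Xirp1 and Xirp2 crosslink or repair actin at strained sites. Sprr1a, Tnfrsf12a and Runx1 are better known outside the sarcomere, as genes switched on in stressed, regenerating or dedifferentiating cells.

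The stretches before the start sites of 4 of these genes are shown because they hold short motifs of factors linked to load and injury, in the genes with the highest level (Ankrd1), a low sham level (Sprr1a) and closely matched levels (Flnc and Xirp2). Sequences are from RefSeq, build GRCm38.p6, 5′ to 3′ on the strand of the gene, and end at the base before the start that RefSeq annotates, which for Sprr1a and Ankrd1 lies inside the gene as GENCODE draws it. Entries for 7 of the 9 genes were matched. Capitals mark motif letters on either strand. The Sprr1a window is chr3:92485882-92486131 on the reverse strand, the Ankrd1 window chr19:36119845-36120094 on the reverse strand, the Xirp2 window chr2:67445752-67446001 on the forward strand and the Flnc window chr6:29433006-29433255 on the forward strand.
Sprr1a: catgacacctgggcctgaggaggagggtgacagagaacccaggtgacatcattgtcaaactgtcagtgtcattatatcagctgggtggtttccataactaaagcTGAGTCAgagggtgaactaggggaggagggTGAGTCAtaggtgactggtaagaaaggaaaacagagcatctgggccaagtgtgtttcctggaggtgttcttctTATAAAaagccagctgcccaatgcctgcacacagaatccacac
Ankrd1: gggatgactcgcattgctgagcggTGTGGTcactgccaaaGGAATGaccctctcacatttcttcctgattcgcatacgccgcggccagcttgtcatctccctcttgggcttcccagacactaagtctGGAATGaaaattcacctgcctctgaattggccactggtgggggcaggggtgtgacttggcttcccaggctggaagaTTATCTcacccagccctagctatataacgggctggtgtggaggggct
Xirp2: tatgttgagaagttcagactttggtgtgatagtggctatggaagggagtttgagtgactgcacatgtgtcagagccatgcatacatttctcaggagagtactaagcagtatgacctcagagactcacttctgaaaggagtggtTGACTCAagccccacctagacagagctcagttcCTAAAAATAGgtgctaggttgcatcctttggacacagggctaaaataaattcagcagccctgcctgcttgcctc
Flnc: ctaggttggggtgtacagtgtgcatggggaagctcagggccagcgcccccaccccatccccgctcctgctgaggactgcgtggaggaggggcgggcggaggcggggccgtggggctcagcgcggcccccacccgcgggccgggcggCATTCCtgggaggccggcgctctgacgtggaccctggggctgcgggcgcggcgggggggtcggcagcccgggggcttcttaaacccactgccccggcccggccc
The motifs searched on both strands over the 250 bases were the MCAT element of TEAD factors with the letters CATTCC, the AP-1 site with TGANTCA, the RUNX site with TGTGGT, the GATA site with the letters AGATAA, the TATA box with the letters TATAAA, and the CArG box and the MEF2 site by name. No marked motif overlaps another in these windows. Sprr1a held the AP-1 letters at 146 to 140 and again at 116 to 110 bases before the start, and TATA letters at 43 to 38. Ankrd1 held MCAT letters at 210 to 205 and at 123 to 118 bases, RUNX letters at 226 to 221 and GATA letters at 47 to 42. Xirp2 held AP-1 letters at 107 to 101 and a MEF2 match at 74 to 65 bases, and Flnc held MCAT letters at 104 to 99 in the window shown. A further Flnc window, chr6:29432903-29433152, held no searched motif. Of 32851 windows of the same length, 12.6% held MCAT, 6.75% AP-1, 14.0% RUNX, 9.99% GATA, 12.4% TATA, 1.69% MEF2 and 1.47% a CArG box. MCAT letters were also found in 1 of the 2 Runx1 windows, and no CArG box was found in the windows of the 7 genes. These matches are descriptions of the letters only.

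Total counts per library ran from 17119454 to 22811295, so that 3 counts stood for 0.132 to 0.175 CPM, counts scaled to the library total with TMM factors. The leading principal component over 15198 other genes took up 64.6% of the variance, and it did not follow the group labels. Sham mice lay between -59.4 and -51.9, but the library labelled MIRI 2 lay at -44.6 and the library labelled GXNI 1 at -43.5, while MIRI 1, MIRI 3 and GXNI 3 lay at 61.4, 83.0 and 94.1 and GXNI 2 at 18.6. The library labelled GXNI 3 was most similar to MIRI 3 (Spearman's rho 0.987) and MIRI 2 to GXNI 1 (0.982), but GXNI 1 was itself most similar to sham 1 (0.984), MIRI 1 to GXNI 3 (0.986) and GXNI 2 to MIRI 1 (0.980), so none of the 6 operated hearts was most similar to a heart of its own label. Results resting on MIRI 2, GXNI 3 or GXNI 1 are given with and without them. The comparison of all 6 operated hearts with sham does not depend on how the operated hearts were split.

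Ankrd1, a titin-bound ankyrin repeat protein that shuttles to the nucleus under load, was the most abundant of the 9 genes. It lies on the reverse strand of chromosome 19 at chr19:36111961-36120099 (GENCODE M21, GRCm38, as for all loci here). Ankrd1 stood at 1674, 1541 and 2254 CPM in sham mice 1 to 3, at 9628, 2731 and 7337 CPM in MIRI mice and at 2109, 6238 and 10070.2 CPM in GXNI mice. The library GXNI 1 lay inside the sham range, MIRI 2 just above it, and the other 4 operated hearts far above it. The group means were 1823 ± 379, 6566 ± 3513 and 6139 ± 3982 CPM (SD, n = 3 each). Ankrd1 alone took 0.147% to 0.219% of all counts in sham hearts and as much as 1.02% in MIRI 1 and 1.01% in GXNI 3.

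Csrp3, which encodes the muscle LIM protein of the Z-disc, lies on the reverse strand at chr7:48830398-48848033. Its level was 829.8, 1013 and 969.7 CPM in sham mice, 1963, 1785 and 2925 CPM in MIRI mice and 707, 1473 and 2439 CPM in GXNI mice. Every MIRI heart was above every sham heart, whereas GXNI 1 was the lowest library of all. The means were 937 ± 95.6, 2224 ± 613 and 1539.7 ± 868 CPM, and the highest library was 4.14 times the lowest, the narrowest span of the 9 genes.

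Flnc, the muscle filamin that crosslinks actin at the Z-disc and the costamere, lies on the forward strand at chr6:29433256-29461883. It measured 279, 233 and 324 CPM in sham mice, 2078, 1004 and 3744 CPM in MIRI mice and 286, 1283 and 3848 CPM in GXNI mice. GXNI 1 was again within the sham range, and the remaining operated hearts were at least 3.61 times the sham mean. The means were 278 ± 45.3, 2275 ± 1380.4 and 1806 ± 1838 CPM.

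Xirp1 and Xirp2 encode Xin repeat proteins that bind actin and filamin C at intercalated discs and at damaged myofibrils. Xirp1 lies on the reverse strand at chr9:120013755-120023598, where it overlaps Cx3cr1 on the same strand without sharing exons, and Xirp2 on the forward strand at chr2:67446002-67526614, opposite the antisense gene Gm13601, which had 37 counts in all libraries together. Xirp1 was at 166, 168 and 230.2 CPM in sham, 816, 431 and 1111 CPM in MIRI and 218, 455 and 1341 CPM in GXNI mice. Xirp2 was at 237, 244 and 296 CPM in sham, 1810.1, 1014 and 3190.2 CPM in MIRI and 294, 1296 and 3188 CPM in GXNI mice. For both genes GXNI 1 fell among the sham mice and the other 5 operated hearts were above them all. The means were 188 ± 36.5, 786 ± 341 and 671 ± 592 CPM for Xirp1 and 259 ± 32.3, 2005 ± 1101 and 1592 ± 1469.8 CPM for Xirp2.

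Sprr1a, a small proline-rich protein of the epidermal envelope that is also induced by gp130 cytokines in stressed myocytes and in regenerating neurons, lies on the reverse strand at chr3:92483952-92485895. It had 9, 6 and 12 counts in sham mice, 417, 102 and 1574 counts in MIRI mice and 116, 293 and 1213 counts in GXNI mice. These are 0.483, 0.298 and 0.642 CPM, then 19.4, 5.99 and 68.2 CPM, then 5.76, 14.5 and 70.4 CPM. All 6 operated hearts were above all sham hearts, and the lowest of them, GXNI 1, was 12.1 times the sham mean. Of the 7 keratinocyte markers, 4 had more than 3 counts in some library, while Krt5 was at 0 and Krt1 and Krtdap had at most 3 counts. The summed level of the list was 2.31 to 2.98 CPM in sham, 2.14 to 3.29 CPM in MIRI and 1.68 to 6.36 CPM in GXNI mice, with GXNI 1 the highest at 6.36 CPM, above Sprr1a in the same library. The part of such cells in the Sprr1a level was not tested.

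Sh2d5, an adaptor protein with an SH2 domain, had the widest span of the 9 genes, the highest library being 456 times the lowest. It lies on the forward strand at chr4:138250403-138261332 and shares exon bases with Kif17 on the same strand, which had 90 counts in all libraries against 3532 for Sh2d5. Sh2d5 had 10, 4 and 3 counts in sham mice, 450, 16 and 1594 counts in MIRI mice and 24, 170 and 1261 counts in GXNI mice. In CPM these are 0.537, 0.198 and 0.161, then 20.9, 0.940 and 69.0, then 1.19, 8.43 and 73.2. No operated heart reached down to the sham range, but MIRI 2 and GXNI 1 were at 3.15 and 3.99 times the sham mean, against 231 and 245 times in MIRI 3 and GXNI 3. With so few sham counts these ratios carry a large counting error.

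Tnfrsf12a, the receptor Fn14 for the cytokine TWEAK, lies on the reverse strand at chr17:23675445-23677468. Its level was 10.5, 24.7 and 30.9 CPM in sham mice, 292, 148 and 381 CPM in MIRI mice and 35.4, 169.9 and 470.3 CPM in GXNI mice. The 6 operated hearts were all above the sham hearts, although GXNI 1 exceeded sham 3 only slightly. The means were 22.1 ± 10.5, 274 ± 118 and 225 ± 223 CPM. Sham mice themselves spread 2.94-fold, sham 1 being the low mouse.

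Runx1, a transcription factor of blood cells that is also re-expressed in injured cardiomyocytes, had the lowest mean per kilobase of the 9 genes in MIRI and in GXNI hearts, although Sh2d5 was lower in GXNI 1. It lies on the reverse strand at chr16:92601466-92826149, opposite the antisense gene Gm26626, which had 14 counts. Runx1 was at 4.78, 3.47 and 4.12 CPM in sham mice, 13.8, 2.41 and 16.6 CPM in MIRI mice and 4.42, 5.50 and 20.1 CPM in GXNI mice. MIRI 2 was below every sham mouse and GXNI 1 among them, so both operated groups overlapped sham. The summed level of 11 neutrophil markers, all of them detected, moved with Runx1. It was 31.5 to 64.2 CPM in sham mice, 789.5, 29.6 and 749.5 CPM in MIRI mice 1 to 3 and 53.3, 252.5 and 783.9 CPM in GXNI mice 1 to 3. The part of these cells in the Runx1 level was not tested.

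**Figure D1:**
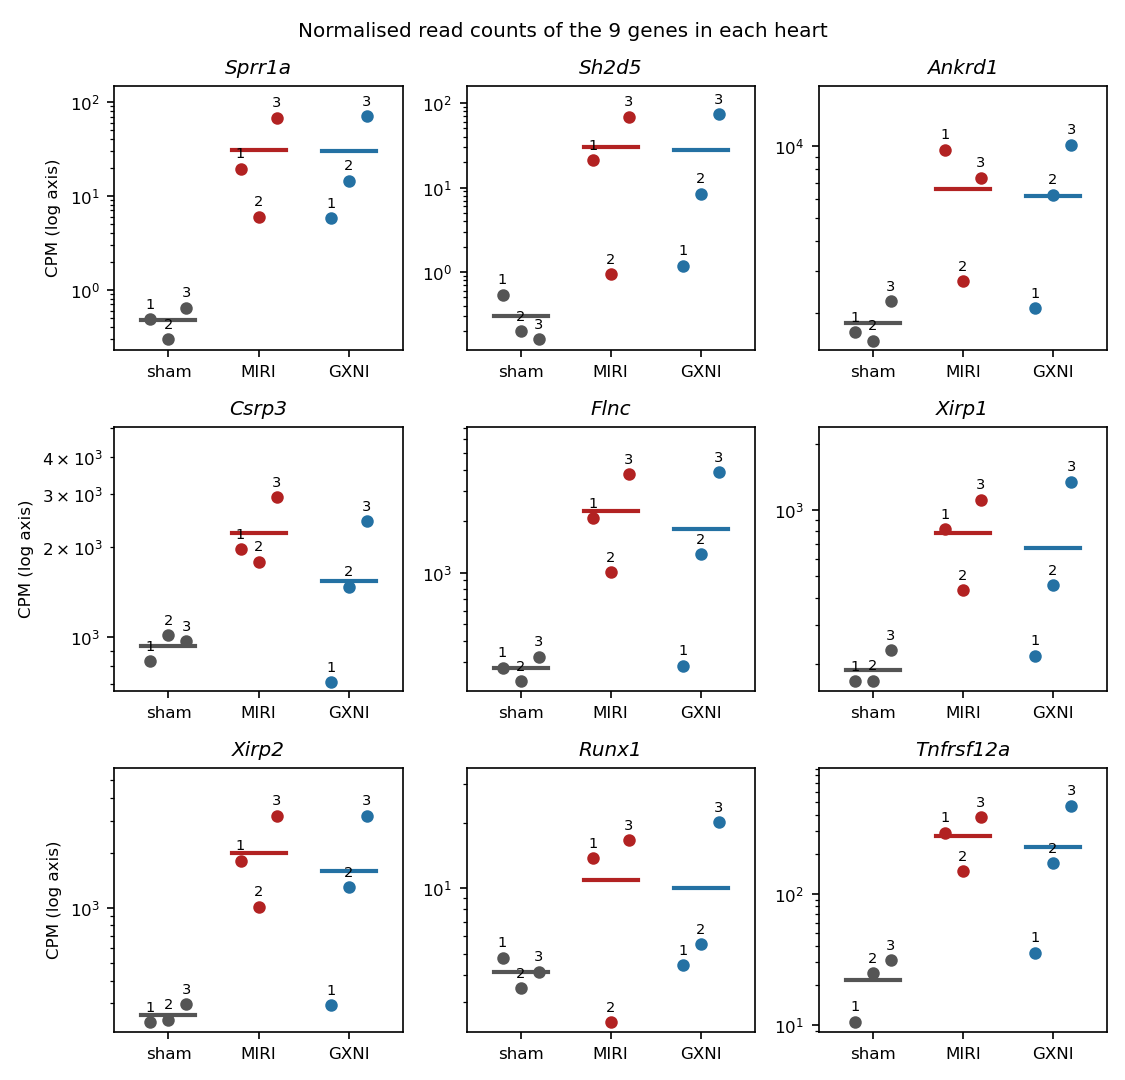
CPM of each of the 9 genes on a log axis, by group, with 1 point per mouse numbered by its replicate and a bar at the group mean. The 3 sham mice spread from 1.22-fold for Csrp3 to 3.35-fold for Sh2d5, and within the operated groups MIRI 2 and GXNI 1 are the low points in every panel.

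Per kilobase of merged exon, the order of the genes in sham hearts was Ankrd1 at 632 ± 131 CPM per kb, Csrp3 at 351 ± 35.8, Xirp1 at 32.2 ± 6.25, Flnc at 29.6 ± 4.81, Xirp2 at 21.6 ± 2.70, Tnfrsf12a at 11.4 ± 5.42, Sprr1a at 0.589 ± 0.214, Runx1 at 0.343 ± 0.0544 and Sh2d5 at 0.0799 ± 0.0554 CPM per kb. Xirp1 and Flnc were neighbours whose sham levels differed by less than their spread. In MIRI hearts Flnc stood at 242 ± 147 CPM per kb and Xirp2 at 167 ± 91.9, above Tnfrsf12a at 142 ± 60.9 and Xirp1 at 135 ± 58.4. The spreads of these 4 overlapped between mice, but within each MIRI mouse Flnc was above Xirp2, at 221 against 151, 107 against 84.6 and 398 against 266 CPM per kb. In MIRI 2 this order came from the division by exon length, 9402 bases for Flnc and 11979 for Xirp2. Its counts were 17088 for Flnc and 17253 for Xirp2. Merged exons cover all annotated transcripts, and which of them were expressed was not measured. Sprr1a at 38.7 ± 40.6 CPM per kb was above Runx1 at 0.908 ± 0.624, as it was in sham hearts. The mean of Sh2d5, below Runx1 in sham hearts, was above it in MIRI hearts at 8.10 ± 9.36 CPM per kb. In MIRI 2 alone, Sh2d5 was at 0.251 against 0.200 CPM per kb for Runx1, but at 0.940 against 2.41 CPM before the division by length.

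In each of the 9 genes the sham mean was the lowest and the MIRI mean the highest, but the MIRI and GXNI groups overlapped for all 9, so their order was within the spread of the mice. Compared with sham, the fitted log2 fold changes in MIRI hearts were 6.65 for Sh2d5 (SE 1.53), 6.04 for Sprr1a (SE 1.01), 3.64 for Tnfrsf12a (SE 0.51), 3.04 for Flnc (SE 0.47), 2.96 for Xirp2 (SE 0.41), 2.07 for Xirp1 (SE 0.35), 1.86 for Ankrd1 (SE 0.46), 1.42 for Runx1 (SE 0.62) and 1.26 for Csrp3 (SE 0.23). At a fold of 1.5 and an unadjusted p of 0.01, 8 of the 9 were called higher, Runx1 being the exception, beside 6.15% of the 14644 genes tested. Adjusted p ran from 0.0607 to 0.185 in edgeR's quasi-likelihood test. In DESeq2's test adjusted p was at most 0.00057 for those 8 and 0.0891 for Runx1. Without the filter, edgeR's test gave 0.00126 to 0.0181 for those 8 and 0.127 for Runx1. Without MIRI 2, Runx1 was at 1.88 (SE 0.19) and all 9 were called, beside 16.9% of genes. Ankrd1 lost its call without sham 1, sham 2, sham 3, MIRI 1 or MIRI 3, at 1.47 to 2.03, and Sh2d5 without any of the sham mice, at 6.35 to 7.35. The groups did not overlap for the same 8 genes, against 16.7% of genes that were higher in this way. Since the genes were picked for these differences, nothing is read from the counts.

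In GXNI hearts compared with sham, the fitted log2 fold changes were 6.52 for Sh2d5 (SE 1.65), 5.997 for Sprr1a (SE 1.10), 3.37 for Tnfrsf12a (SE 0.91), 2.71 for Flnc (SE 0.83), 2.64 for Xirp2 (SE 0.76), 1.85 for Xirp1 (SE 0.62), 1.77 for Ankrd1 (SE 0.52), 1.29 for Runx1 (SE 0.59) and 0.73 for Csrp3 (SE 0.41). The 3 called were Sprr1a, Sh2d5 and Tnfrsf12a, beside 2.67% of 14695 genes. The count was decided by single libraries: it was 8 without GXNI 1 (10.7% of genes), 2 without GXNI 3 (2.11%), and 1 without sham 1, sham 2 or sham 3 in turn (0.781%, 0.551% and 0.64%). Tnfrsf12a lost its call without GXNI 2 at 3.54 and without GXNI 3 at 2.22. With all 6 libraries, adjusted p ran from 0.219 to 0.333 in edgeR's quasi-likelihood test. In DESeq2's test adjusted p was at most 0.0284, except for Runx1 at 0.159 and Csrp3 at 0.298. Without the filter, edgeR's test gave 0.039 for Sprr1a and 0.0806 to 0.373 for the others. Both operated groups were set against the same 3 sham mice, so the comparisons are not independent. The genes were picked partly for rises after ischemia-reperfusion in these libraries, so these adjusted p are a description and no test of them.

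With the 6 operated hearts set as 1 group against sham, all 9 log2 fold changes were positive, with a median of 2.798 beside 0.01 for all genes. The highest were Sh2d5 at 6.58 (SE 1.80) and Sprr1a at 6.01 (SE 1.18), and the lowest were Csrp3 at 1.01 (SE 0.37) and Runx1 at 1.35 (SE 0.63), the only members not called. The 7 called stood beside 5.52% of 15207 genes. Their number was also 7 without MIRI 2 and GXNI 3 (6.6% of genes) and was 8 without GXNI 1 (9.57%), but 2 without sham 1 (2.19%), 2 without sham 2 (1.63%) and 3 without sham 3 (1.99%). Ankrd1 lost its call without MIRI 1 at 1.65 and without MIRI 3 at 1.77. Only Sprr1a, Sh2d5 and Tnfrsf12a were above the highest sham mouse in all 6 operated hearts, as 7.96% of genes were.

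Heart by heart, all 9 genes were above the highest sham mouse in MIRI 1, MIRI 3, GXNI 2 and GXNI 3, where 39.2%, 41.7%, 36.5% and 41.1% of all genes were. In MIRI 2 the number was 8 (31.9% of genes). In GXNI 1 it was 3 (30.3% of genes), namely Sprr1a, Sh2d5 and Tnfrsf12a. Above 1.5 times the highest sham mouse, MIRI 2 kept 7 of the 9 genes, beside 3.68% of all genes, and GXNI 1 kept 2, beside 4.4%. In MIRI 1, MIRI 3 and GXNI 3 all 9 passed this mark (15.1%, 19.3% and 20.2% of genes), and in GXNI 2 it was passed by 7 (9.15%). Relative to the sham mean, the log2 ratios in MIRI 2 were 3.66 for Sprr1a, 2.74 for Tnfrsf12a, 1.97 for Xirp2, 1.85 for Flnc, 1.65 for Sh2d5, 1.20 for Xirp1, 0.93 for Csrp3, 0.58 for Ankrd1 and -0.78 for Runx1. In GXNI 1 the log2 ratios were 3.60 for Sprr1a, 1.997 for Sh2d5 and 0.68 for Tnfrsf12a, and from -0.41 for Csrp3 to 0.21 for Ankrd1 and Xirp1 for the others.

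**Figure D2:**
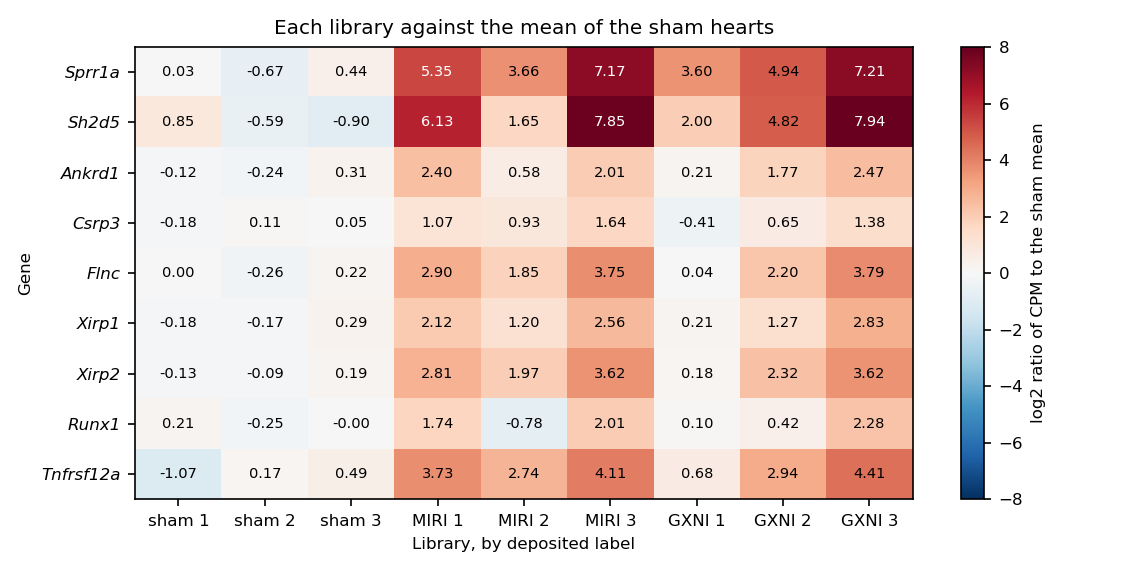
Log2 ratio of each gene's CPM to its sham mean, with genes in rows and the 9 libraries in columns, colour giving the ratio. GXNI 1 is the palest operated column, followed by MIRI 2 in most rows, with Sprr1a raised in both, and MIRI 3 and GXNI 3 are the darkest in most rows.

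GXNI hearts were compared with MIRI hearts to ask whether the treatment changed these genes, which the choice of the genes did not use. None of the 9 was called. The log2 fold changes (GXNI minus MIRI) were all negative, and each was smaller than its standard error except for Csrp3 (SE 0.45). They were -0.52 for Csrp3 (95% interval -1.61 to 0.56), -0.32 for Flnc (-2.44 to 1.80), -0.32 for Xirp2 (-2.25 to 1.61), -0.27 for Tnfrsf12a (-2.25 to 1.70) and -0.22 for Xirp1 (-1.82 to 1.38). They were -0.12 for Runx1 (-2.06 to 1.82), -0.12 for Sh2d5 (-3.91 to 3.68), -0.09 for Ankrd1 (-1.66 to 1.47) and -0.03 for Sprr1a (-2.63 to 2.58). Each had an adjusted p of 1 in edgeR's quasi-likelihood test with Benjamini-Hochberg adjustment over 14762 genes. The intervals all cover 0 and most are wider than 3 log2 units, so with 3 mice per group differences inside these bounds are not excluded. MIRI and GXNI overlapped for all 9 genes, while 1.29% of genes were higher and 1.38% lower without overlap. Over all genes the same test called 0% higher and 0.0203% lower, with 47 genes at an unadjusted p under 0.05, and DESeq2 called 4 higher and 7 lower.

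The sign of these differences was set by single hearts. Without GXNI 1, 8 of the 9 log2 fold changes were positive, at 0.17 to 0.46, and Csrp3 was at -0.18. Without MIRI 3, 7 were positive, led by Sh2d5 at 1.32 and Sprr1a at 1.23. MIRI 2 was the lowest MIRI mouse and GXNI 3 the highest GXNI mouse for all 9 genes, so leaving both out lowers every difference by construction, and the direction found without them is no sign of stability. The 9 log2 fold changes then ran from -1.02 for Ankrd1 (SE 0.50) to -3.21 for Sh2d5 (SE 0.92). In that fit Xirp1 at -1.51 (SE 0.37) and Runx1 at -1.60 (SE 0.24) were called lower, beside 3.47% of 14984 genes called lower and 1.52% called higher, with adjusted p of 0.189 and 0.182 in edgeR's quasi-likelihood test with Benjamini-Hochberg adjustment. That fit rests on 2 mice per group.

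**Figure D3:**
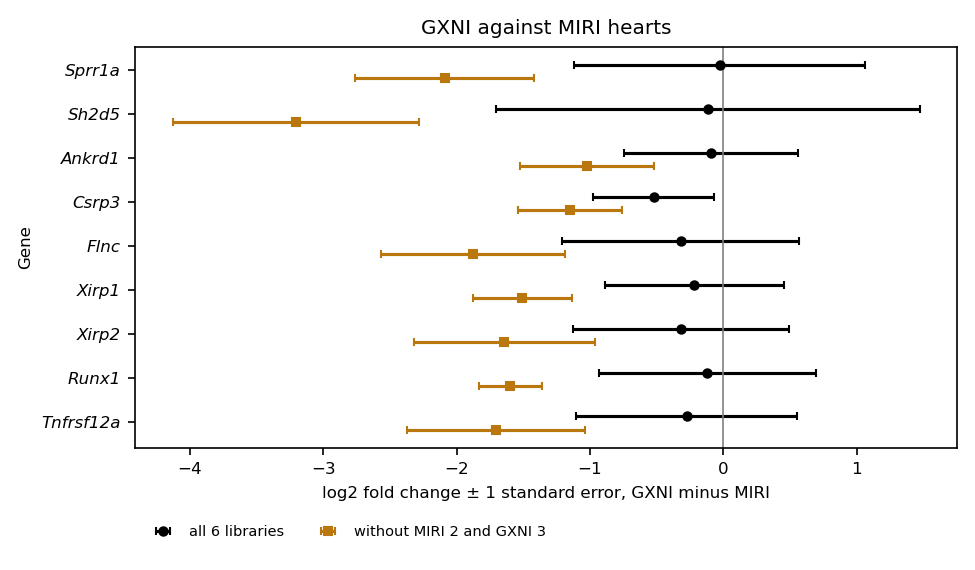
Log2 fold change of each gene, GXNI minus MIRI, with bars of 1 standard error, for all 6 libraries and without MIRI 2 and GXNI 3. With all libraries the bar of every gene but Csrp3 crosses 0, and without those 2 libraries every point lies below -1.

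Ratios between the genes within a library were also compared, as these do not depend on library size. Of the 36 pairs, Flnc and Xirp2 stayed closest. The ratio of Flnc to Xirp2 counts was 1.18, 0.956 and 1.09 in sham mice, 1.15, 0.990 and 1.17 in MIRI mice and 0.975, 0.990 and 1.21 in GXNI mice. It thus spanned 1.26-fold while Flnc spanned 16.5-fold and Xirp2 13.5-fold. Next came Ankrd1 and Xirp1, whose ratio was 6.33 in MIRI 2, 6.60 in MIRI 3, 7.51 in GXNI 3 and between 9.20 and 13.7 in the other 6 libraries. The ratio of Sprr1a to Sh2d5 was 0.927, 0.987 and 0.962 in MIRI 1, MIRI 3 and GXNI 3, where both were high, 6.38 and 4.83 in MIRI 2 and GXNI 1 and 1.72 in GXNI 2. In sham mice it was 0.9, 1.5 and 4 on at most 12 counts per gene, a range that comes close to GXNI 1. The widest spread was between Sh2d5 and Csrp3. The genes of a pair share the library and its injury, so these ratios are a description.

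**Figure D4:**
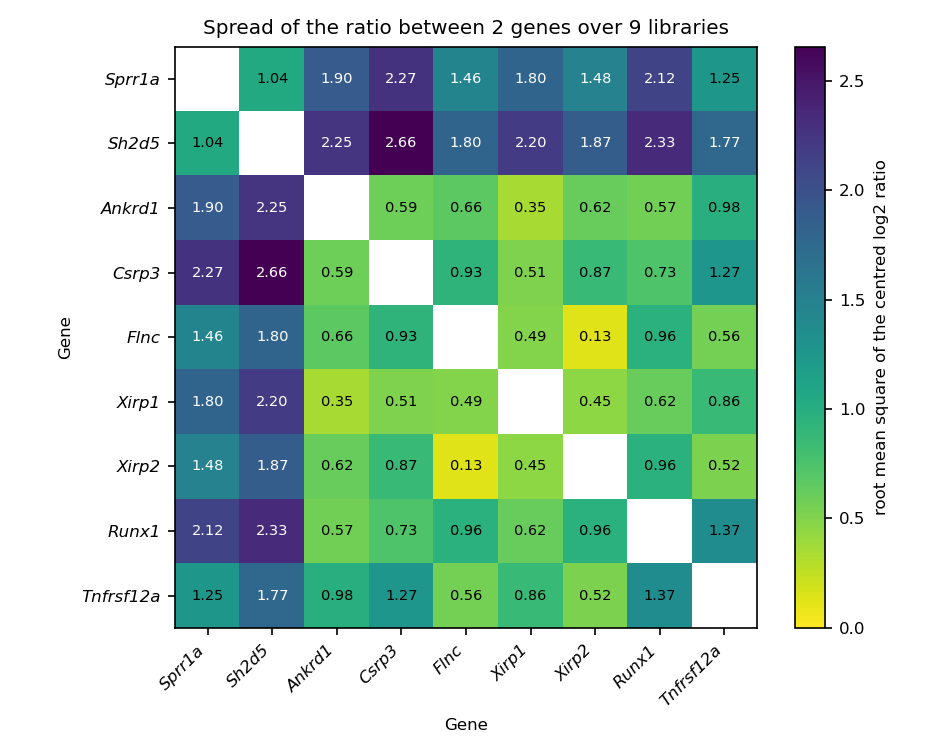
Spread of the ratio between each of the 36 pairs of genes over the 9 libraries, as the root mean square of the centred log2 ratio, where 0 is a constant ratio. Flnc with Xirp2 has the smallest value, 0.128, and Sh2d5 with Csrp3 the largest, 2.66.

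The genes with the most similar course over the 9 libraries were found by the root mean square difference of centred log2 CPM among 15198 genes. Closest to Flnc was Hspb1, a small heat shock protein, at 0.112, followed by Rtn4, a reticulon of the endoplasmic reticulum, at 0.245. Hspb1 had 3749, 3540 and 4187 counts in sham, 34833, 13530 and 71694 counts in MIRI and 4514, 23958 and 52132 counts in GXNI mice, and its ratio to Flnc stayed between 0.693 and 0.926. Hspb1 was also closest to Xirp2 (0.149), with the Ras-related GTPase Rras2 next (0.176). Tnfrsf12a had the same 2 genes nearest, but farther away, at 0.513 for Rras2 and 0.514 for Hspb1. Xirp1 was nearest to Klhl41, a kelch protein of striated muscle (0.184), and Pfkp, a phosphofructokinase (0.193).

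Ankrd1 was nearest to Padi4, a peptidylarginine deiminase of neutrophils (0.167), and the translation factor gene Eif1a (0.222), and Csrp3 to Rpf2, a ribosome assembly factor (0.173), and Eif5, a translation factor (0.178). Runx1 was nearest to Lmnb1, which encodes lamin B1, and Rassf5, a Ras effector of lymphocytes, each at 0.152. The 2 most variable genes lay farthest from their nearest genes on this measure, which is not scaled to a gene's own range. That range was 8.62 log2 units for Sh2d5 and 7.77 for Sprr1a, against 2.05 for Csrp3. For Sh2d5 the nearest were Thbs1, thrombospondin 1, at 0.604 and Ereg, the growth factor epiregulin, at 0.607, and for Sprr1a they were Thbs1 at 0.776 and Ltf, the neutrophil granule protein lactoferrin, at 0.792, the latter with 0 counts in all sham mice. Thbs1 had 132, 59 and 122 counts in sham, 11428, 645 and 23273 counts in MIRI and 418, 3531 and 15359 counts in GXNI mice.

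Partner genes of the same pathways were counted in all operated hearts against sham, where 5.52% of genes were called higher and 2.85% lower and the median log2 fold change was 0.01. The lists were chosen with earlier results of these data known. Their counts against sham, here and below, are therefore a description and no independent support. Of 33 Z-disc, costamere and LIM partners, 12 were called higher and 1 lower, with a median of 0.55. Ankrd2, the muscle relative of Ankrd1, was at 4.03 (SE 1.15), the LIM protein Fhl1 at 2.78 (SE 0.57) and the Z-disc protein Synpo2l at 2.61 (SE 0.57). Tcap, the titin cap protein that partners Csrp3, was the gene called lower, at -1.69 (SE 0.36). Its counts were 41589, 47598 and 40089 in sham, 11016, 22956 and 10208 in MIRI and 18317, 9329 and 8164 in GXNI mice, all 6 operated hearts being below sham. Of 13 genes of filamin and titin quality control, 1 was called, Hspb1 at 3.05 (SE 0.75), and the median was 0.03.

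Among 22 targets or regulators of SRF and MRTF, the actin-sensing transcription pathway, 10 were called higher and none lower (median 0.94). They included Egr2 at 4.07 (SE 0.94), Fos at 3.18 (SE 0.75), Egr1 at 2.995 (SE 0.89) and the cytoplasmic actin Actg1 at 1.72 (SE 0.43). Of 22 measured genes of the YAP and TEAD pathway, 3 were called higher and none lower (median 0.38), Ccn2 at 3.47 (SE 0.63), Ccn1 at 2.37 (SE 0.72) and Myof at 0.77 (SE 0.21). Ccn1 and Ccn2 are matricellular proteins, and Myof is a membrane repair protein.

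Of 14 genes of TWEAK and Fn14 signaling, 2 were called higher (median 0.37), the NF-kappa-B subunit Relb at 1.61 (SE 0.42) and the adaptor Traf3 at 0.69 (SE 0.20). Of 10 RUNX family genes and cofactors none was called (median 0.19), and of the 16 SPRR and epidermal envelope genes 2 passed the filter and none was called. Sprr1b and Sprr3 had no counts in any library. Of 15 measured genes of gp130 cytokine signaling, 5 were called higher and none lower (median 0.81). Il6 was at 5.59 (SE 1.74), Lif at 4.72 (SE 1.46) and Clcf1 at 3.004 (SE 0.74). The first of these rests on low sham counts and not on all operated hearts. Il6 had 2, 3 and 10 counts in sham, 383, 3 and 568 in MIRI and 12, 55 and 538 in GXNI mice. Lif, likewise low in sham, had 5, 6 and 4 counts there, 149, 13 and 293 in MIRI and 6, 29 and 347 in GXNI mice. Il11 had at most 2 counts in any sham mouse and 78, 5 and 195 counts in MIRI and 0, 44 and 171 counts in GXNI mice, at least 26.0-fold higher over the operated hearts than a floor of 3 counts per sham library. In GXNI against MIRI hearts no gene of these 8 lists was called, beside the 0% and 0.0203% of all genes.

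Markers of other cell types were measured beside these genes. The summed level of 10 cardiomyocyte markers was 46462 to 49678 CPM in sham, 32716 to 50929 CPM in MIRI and 34173 to 41456 CPM in GXNI mice, with 5 of the 6 operated hearts below sham and MIRI 2 above it. Atrial markers were at 64.5 to 104 CPM in sham and reached 686 CPM in MIRI 3 and 745 CPM in GXNI 3, with 88.8 CPM in GXNI 1. Of the skeletal muscle list Myh4 was at 0 and Myh1, Myh2 and Tnnc2 had at most 3 counts, and its sum of 765 to 924 CPM in sham hearts was 514 to 674 CPM in MIRI and 607 to 767 CPM in GXNI hearts. The macrophage list was at 596 to 692 CPM in sham, 431 to 848 CPM in MIRI and 506 to 749 CPM in GXNI hearts, and the fibroblast list at 1139 to 1389, 911 to 1136 and 703 to 1886 CPM. Endothelial markers were at 617 to 894, 665 to 1004 and 685 to 1097 CPM, and smooth muscle and pericyte markers at 725 to 886, 416 to 727 and 486 to 812 CPM. Mesothelial markers were at 10.4 to 23.96, 9.62 to 13.6 and 8.93 to 72.4 CPM, adipocyte markers at 505 to 661, 427 to 462 and 420 to 461 CPM, with Adipoq and Lep at most 3 counts, and erythrocyte markers at 136 to 315, 161 to 311 and 181 to 395 CPM. The part of these cells in the levels of the 9 genes was not tested.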

How the data were processed

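The values are counts of reads per gene that the authors made and deposited without normalization: reads were cleaned, aligned with HISAT2 to mm10 per the labels and counted with featureCounts of Subread. Software versions, annotation release and strand setting are not given in the sources used here. GENCODE M21 (GRCm38) gave symbols for 54409 of the 54532 identifiers and none for 123. The number of columns of other samples was 0. Comparisons were fitted over all genes with edgeR 4.0.16 in R 4.3.3 (TMM, filterByExpr, quasi-likelihood F test). Calls used the study's limits, a 1.5-fold change and a p of 0.01 before adjustment, and Benjamini-Hochberg adjusted p were given beside tests. The standard error is the log2 fold change divided by the square root of F. CPM used TMM factors over the 9 libraries, and log2 CPM a prior count of 0.5. The members and lists were chosen with earlier results of these data known. From each pathway list at most 4 called genes with the largest log2 fold change and a mean of at least 1 CPM were named, and for each member the 2 nearest genes. The scripts were tested on simulated data. Groups and replicate numbers follow the labels, mice of different groups are different animals, and no pair of libraries agreed within sampling noise (smallest chi-square per degree of freedom 14.4). Alternatives were DESeq2 1.42.0, RLE normalization, no filter, adjusted p of at most 0.05, all 9 libraries in 1 fit, a replicate block, each library left out, and MIRI 2 and GXNI 3 left out.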

Additional observations from a re-analysis of the deposited data

How the results depend on the processing

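The fits of the 9 genes kept a positive log2 fold change against sham in every alternative run, and the counts of calls depended on single mice. Since the genes were picked partly for rises in these same libraries, neither that sign nor the calls against sham are an independent test. At an adjusted p of at most 0.05, edgeR's main fit called 0 members in MIRI, 0 in GXNI and 0 in all operated hearts. Against sham, DESeq2 kept all but Runx1 in MIRI and all but Runx1 and Csrp3 in GXNI. Leaving out 1 library at a time gave 6 to 9 genes called in MIRI against sham, 1 to 8 in GXNI against sham and 2 to 8 in all operated hearts. The shares of all genes called higher in these fits were 2.25% to 16.9%, 0.551% to 10.7% and 1.63% to 9.67%, in that order. In MIRI against sham, 6 genes were called with all 9 libraries in 1 fit, where Csrp3 at 1.25 and Ankrd1 at 1.85 lost their calls. In GXNI against sham, 7 genes were called with DESeq2, 7 without the filter and 5 with all 9 libraries in 1 fit. In GXNI against MIRI the log2 fold changes with 1 library left out ran from -0.65 to 0.31 for Ankrd1, -1.53 to 0.21 for Flnc, -1.13 to 0.29 for Runx1, -2.64 to 1.32 for Sh2d5, -1.61 to 1.23 for Sprr1a, -1.41 to 0.23 for Tnfrsf12a, -1.22 to 0.20 for Xirp1, -1.33 to 0.17 for Xirp2 and -1.03 to -0.18 for Csrp3.

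Without MIRI 2 and GXNI 3, 2 of the 9 genes were called lower in GXNI against MIRI, and the log2 fold changes were -2.09 for Sprr1a, -3.21 for Sh2d5, -1.02 for Ankrd1, -1.15 for Csrp3, -1.88 for Flnc, -1.51 for Xirp1, -1.64 for Xirp2, -1.60 for Runx1 and -1.71 for Tnfrsf12a. Of the lists, 3 of 33 Z-disc genes and 8 of 22 SRF and MRTF genes were then called lower. So were 4 of 22 YAP and TEAD genes, 4 of 14 TWEAK and Fn14 genes and 2 of 10 RUNX genes. Called lower, too, were 1 of 2 SPRR genes and 7 of 15 gp130 genes, and 1 of 13 filamin and titin genes was called higher. Over all 14984 genes 3.47% were called lower and 1.52% higher. MIRI 2 lay near sham and GXNI 3 near MIRI 3 over all genes, so these counts are a description only. In all operated hearts against sham without MIRI 2 and GXNI 3, 13 of 33 Z-disc genes were called higher and 2 lower. Of 10 RUNX genes 1 was called higher and 1 lower, of 2 SPRR genes 1 higher. Of 15 gp130 genes 6 were called higher and 1 lower. Over all genes 6.6% were called higher and 3.24% lower. The count of all genes called higher and lower in MIRI against sham was 900 and 413, but 1491 and 760 with DESeq2, 1603 and 803 without the filter, 535 and 265 with all 9 libraries, 2 and 0 at an adjusted p of at most 0.05 and 2571 and 2021 without MIRI 2. It was 362 and 202, 340 and 174, and 367 and 178 without sham 1, 2 and 3, and 431 and 190 and 475 and 228 without MIRI 1 and MIRI 3. In GXNI against sham it was 392 and 226, but 994 and 407 with DESeq2, 999 and 426 without the filter and 1603 and 1062 without GXNI 1. It was 118 and 150, 83 and 92, and 97 and 90 without sham 1, 2 and 3, and 237 and 108 without GXNI 2. In all operated hearts it was 840 and 434, but 1519 and 677 with DESeq2, 342 and 253, 254 and 209, and 311 and 226 without sham 1, 2 and 3, 515 and 261 and 531 and 305 without MIRI 1 and MIRI 3, 1466 and 722 without MIRI 2 and 1440 and 858 without GXNI 1. The cause was not tested.

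The replicate numbers did not pair the mice, as the correlations of same-numbered deviations were -0.085, 0.053 and 0.108 for MIRI and sham, 0.108, -0.076 and 0.118 for GXNI and sham, and -0.445, 0.128 and 0.701 for GXNI and MIRI. With the replicate number as a block, the fit called 8, 3, 0 and 7 of the 9 genes in MIRI against sham, GXNI against sham, GXNI against MIRI and all operated hearts against sham, the same counts as without it, and 2 genes higher and 1 lower over all genes in GXNI against MIRI, where the unblocked fit called 0 and 3.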
